A study of Homo sapiens with 6 samples.

Results

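The annexin and S100 genes of H1299 cells were examined in an RNA-seq experiment that compared cells carrying a control shRNA with cells carrying an Ephexin1 shRNA. The members were chosen by name alone, as every gene of the table whose symbol is ANXA or S100 followed by a member number or letter. They were 31 of the 26255 genes listed, 12 annexins and 19 S100 genes. H1299 (NCI-H1299) is a human lung cancer cell line grown in RPMI-1640 with serum. The shControl group was 3 libraries of H1299 cells with the pSilencer2.1-U6 vector expressing a control shRNA, and the shEphexin1 group was 3 libraries of H1299 cells with the same vector expressing an Ephexin1 shRNA. The labels name the neo form of this vector and the study's methods the hygro form. The study describes selected stable knockdown clones, and the 3 shEphexin1 library names share a stem, so these libraries may come from 1 clone. The p-values then measure the spread between libraries, which may be technical.

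Annexins bind acidic phospholipids in the presence of calcium through a conserved core of repeats, and they take part in membrane repair, vesicle traffic and links between membranes and actin. S100 proteins are small EF-hand calcium sensors without enzyme activity that act as dimers by binding target proteins. The families meet in known complexes, such as annexin A2 with S100A10 and annexin A1 with S100A11. Several S100 genes are used as tumour markers, and S100A4 is known for its link to cell motility and metastasis.

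The values are FPKM (fragments scaled to transcript length and to the mapped fragments of the library), 1 per gene and library, and no read counts are given, so depth is unknown. Between 16958 and 17509 genes were above 0 FPKM in a library. NGEF, which encodes Ephexin1, was at 13.3, 11.7 and 16.4 FPKM in shControl, against 9.81, 8.25 and 10.5 FPKM in shEphexin1, a difference of -0.53 on the log2 scale, shEphexin1 over shControl (standard error, SE, 0.163; adjusted p = 0.103 by limma, and 0.00284 with the replicate number as a block). The values of the groups did not overlap, and the shEphexin1 mean was 68.9% of the control (p = 0.1 in an exact two-sided permutation test, and 3 libraries against 3 cannot give less). Of 4 lung epithelial markers, NKX2-1 and SCGB1A1 were listed at 0 in all 6 libraries, SFTPC was listed at 0 in 5, and SFTPB was between 0.151 and 0.312 FPKM. Of 6 general epithelial markers, CDH1 was listed at 0 in all 6 libraries and 4 were tested. KRT18 averaged 88.9 FPKM in shControl and 46.2 FPKM in shEphexin1 (log2 fold change -0.94, adjusted p = 0.0439, and 2e-04 with the block), and KRT8 averaged 6.78 and 3.13 FPKM (-1.07, adjusted p = 0.0304, and 0.00106 with the block). KRT7 had a log2 fold change of -0.79 with overlapping groups, and EPCAM, at no more than 0.220 FPKM, had one of 0.97. Neither passed with or without the block. EPCAM reached 0.1 FPKM, the level needed for testing, only in the shEphexin1 libraries. It thus entered the test only through the group where it was higher, and its groups then could not overlap. The part of these differences in the results for the annexin and S100 genes was not tested. The 3 mesenchymal markers went both ways. VIM averaged 2165 FPKM in shControl and 2492 FPKM in shEphexin1 (log2 fold change 0.20, adjusted p = 0.366, and 0.0187 with the block). FN1 had a log2 fold change of 0.27 without overlap and CDH2 one of -0.21 with overlapping groups. Neither FN1 nor CDH2 passed with or without the block. Among leukocyte markers PTPRC and CD3E were listed at 0 in all 6 libraries, CD14 reached 0.164 FPKM, and LYZ was between 0.0823 and 1.47 FPKM. Among fibroblast markers COL1A2 and LUM were listed at 0 in all 6 libraries, PDGFRB reached 0.0621 FPKM, DCN was between 0.268 and 0.693 FPKM, and COL1A1 was at 0.0813 to 0.124 FPKM in shControl and 0.168 to 0.386 FPKM in shEphexin1 (adjusted p = 0.174). Zeros are given only as listed values, since H3F3A, a histone gene that all cells use, also had 0 in each of the 6.

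A gene was tested when 3 or more of the 6 libraries had 0.1 FPKM or higher. Of the 31 members, 19 were tested, namely 8 annexins and 11 S100 genes. The 12 others were ANXA3, ANXA8, ANXA10, ANXA13, S100A6, S100A7, S100A8, S100A9, S100A12, S100B, S100G and S100Z. Of these, 7 were listed at 0 in all 6 libraries, among them S100A8 and S100A9, which together form calprotectin in neutrophils and monocytes, and S100B, a marker of glia and melanocytes. The highest value of any untested member was 0.638 FPKM, for S100A6 in shEphexin1 replicate 1. S100A6 (calcyclin), which binds annexin A11, was at 0, 0.124 and 0 FPKM in shControl, against 0.638, 0.0924 and 0 FPKM in shEphexin1. By contrast, ANXA11 was at 54.0 ± 5.36 FPKM in shControl (SD, n = 3).

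The level of these genes, which FPKM gives per length, was set by a few members. ANXA2 was at 535, 517 and 551 FPKM in shControl and ANXA1 at 510.4, 516 and 500.3 FPKM, which put them at ranks 128 and 143 of the 16020 genes tested by mean level. ANXA1 and ANXA2 held between 77.8% and 80.8% of the summed annexin FPKM of a library. The next annexins in order were ANXA5 (128 ± 8.42 FPKM in shControl), ANXA11, ANXA7 (42.1 ± 3.96), ANXA6 (36.3 ± 5.07) and ANXA4 (22.6 ± 2.82 FPKM, SD, n = 3 each). In shControl the values of ANXA7 and ANXA6 overlapped, those of ANXA2 and ANXA1 were separated only narrowly, and the other neighbours in this order did not overlap. ANXA9 was the only tested annexin under 20 FPKM, at 1.42 ± 0.275 FPKM. Among the S100 genes, S100A11 came first at 399 ± 42.8 FPKM in shControl, followed by S100A10 at 137 ± 14.7 and S100A13 at 131 ± 17.0 FPKM (SD, n = 3 each), and the last of these pairs overlapped. S100A10, S100A11 and S100A13 held between 92.9% and 94.7% of the summed S100 FPKM of a library.

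**Figure D1:**
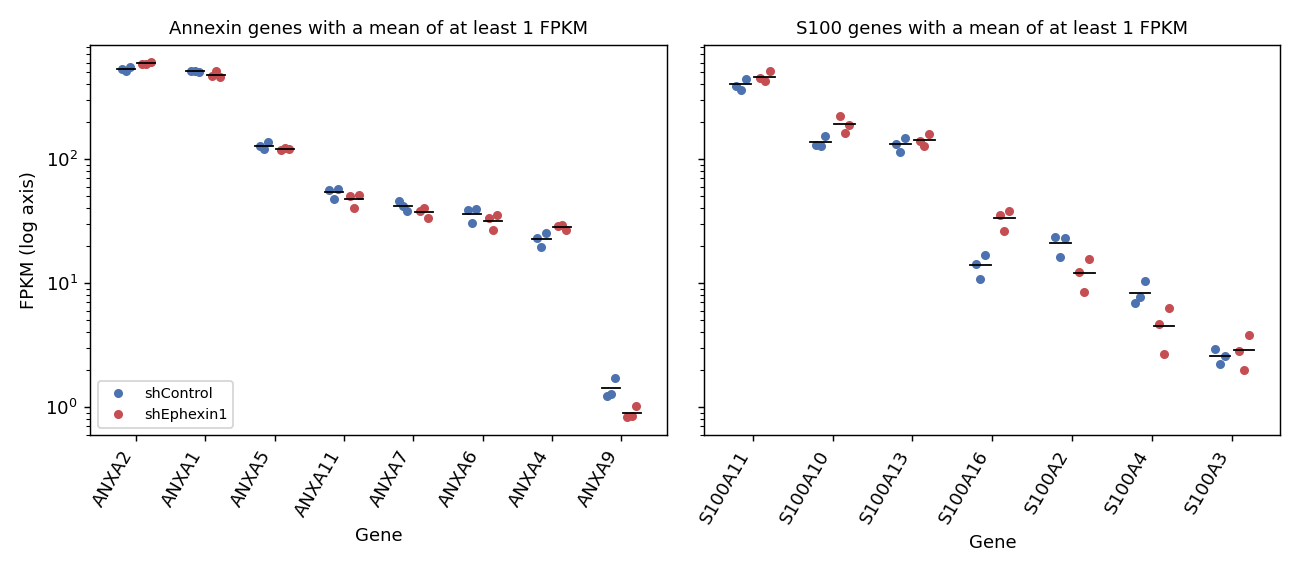
FPKM of the 15 annexin and S100 genes with a mean of at least 1 FPKM, on a log axis, in order of their mean level. Points are the 3 shControl (blue) and 3 shEphexin1 (red) libraries and black bars are group means; only for S100A16 do the group means lie more than 2-fold apart.

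The question of the experiment was which mRNAs differ after Ephexin1 knockdown. The thresholds were those of the study, an adjusted p (here from limma) no higher than 0.025 together with a difference of 2-fold or more, and a gene past both was called. Of the 19 members tested, 1 was called, S100A16, which rose, and 0 were called lower. Among all 16020 genes tested, 1.89% were called, 0.893% higher and 0.999% lower. At the adjusted p alone, again 1 of the 19 members passed, where 3.41% of all genes did (1.25% higher and 2.15% lower). At an unadjusted p under 0.05 there were 6 members (ANXA4, ANXA9, S100A2, S100A4, S100A10 and S100A16), where 23.3% of all genes had such a p. The values of the groups did not overlap for 7 members, the same 6 and ANXA2, against 28.3% of all genes tested. The median log2 fold change was 0.11 over the 19 members, -0.13 over the annexins and 0.21 over the S100 genes, where that of all genes was -0.0093. The median over members was -0.081 with a filter of 1 FPKM, which leaves out 4 low S100 genes, and -0.050 without shEphexin1 replicate 3. The fitted difference was above 0 for 10 members (2 annexins and 8 S100 genes) and below 0 for 9. Among all 16020 genes tested it was above 0 for 7835 and below 0 for 8185.

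Libraries of the same replicate number deviated from their group means together, so the fit was also made with the replicate number as a block. With this replicate block, 7 of the 19 members passed the adjusted p. They were S100A16, S100A10 and S100A11, which were higher in shEphexin1, and S100A2, S100A4, ANXA6 and ANXA11, which were lower. The block also raised the share of all genes that passed to 25.7% (10.1% higher and 15.7% lower), and to 40.0% of the genes with a mean of at least 10 FPKM, so the count of members is near the background. At the full thresholds S100A16 was again the only member called, against 3.47% of all genes.

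**Figure D2:**
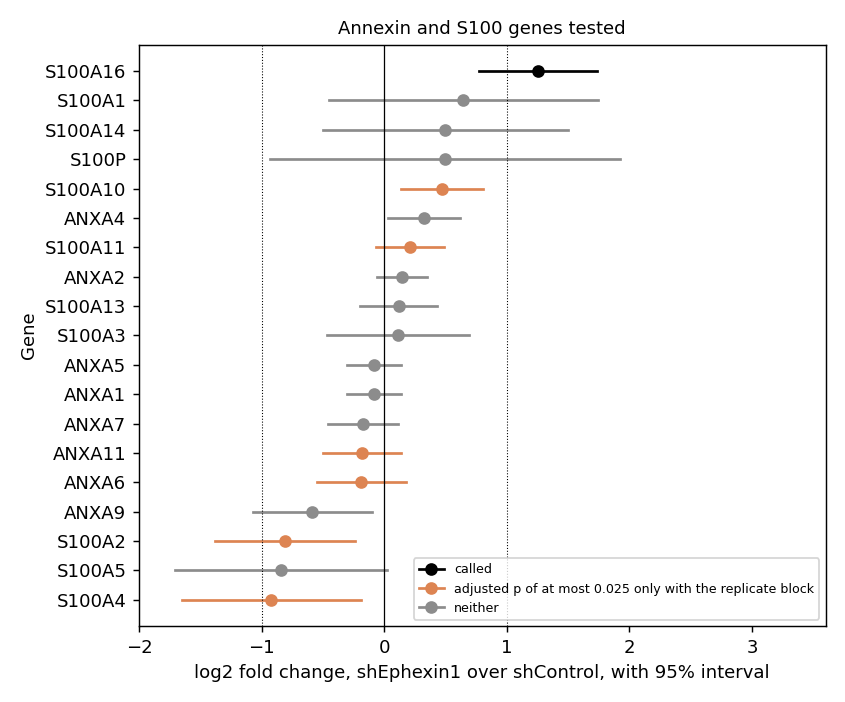
Log2 fold change of the 19 members tested, shEphexin1 over shControl, with the 95% interval of the limma model. Dotted lines mark a 2-fold difference; S100A16 (black) lies at 1.25 and is the only member past the line, and 6 members (orange) passed an adjusted p of 0.025 with the replicate block but not without it.

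S100A16, a widely expressed S100 protein, had the largest difference of the members tested. It was at 14.3, 10.7 and 16.7 FPKM in shControl, against 35.3, 26.2 and 38.2 FPKM in shEphexin1. The lowest shEphexin1 library was well above the highest shControl library. The log2 fold change was 1.25 (SE 0.206, 95% interval 0.77 to 1.74, adjusted p = 0.0176), a 2.39-fold increase. Within replicate numbers 1, 2 and 3 the log2 differences were 1.29, 1.28 and 1.19, so the size hardly varied between them. With the replicate block the adjusted p was 2e-04 (SE 0.0524), and with replicates 1 and 3 alone it was 0.00275. The call depended on which libraries were in the fit, as did the number of all genes called. With 1 library left out at a time the log2 fold change stayed between 1.08 and 1.42, but the adjusted p was over 0.025 in 5 of the 6 fits (range 0.0143 to 0.0904), all except that without shEphexin1 replicate 2. In those 5 fits the number of all genes called also fell, from 303 with all libraries to between 61 and 189. It was 316 without shEphexin1 replicate 2. In bulk RNA, a different mix of cells and a different level per cell cannot be told apart.

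S100A2 and S100A4 were the S100 genes with the largest differences in the other direction among those above 1 FPKM. S100A2, a p53 family target of squamous and basal epithelia, was at 23.6, 16.3 and 23.0 FPKM in shControl, against 12.3, 8.51 and 15.6 FPKM in shEphexin1. Its groups did not overlap, by a narrow gap between shControl replicate 2 and shEphexin1 replicate 3. The log2 fold change was -0.81 (SE 0.245, adjusted p = 0.0982, and 0.00155 with the replicate block), and S100A2 was not called. S100A4, which binds non-muscle myosin and is known for its role in cell motility, was at 6.90, 7.73 and 10.4 FPKM in shControl, against 4.66, 2.67 and 6.32 FPKM in shEphexin1. The highest shEphexin1 library came just under the lowest shControl library. The log2 fold change was -0.92 (SE 0.312, adjusted p = 0.130, and 0.0125 with the replicate block), and within replicate number 2 it was -1.501 against -0.56 and -0.71 in the others. The gene span of S100A4 covers that of S100A3 on the same strand, so reads of the pair could be split by the counting, and S100A3 was at 2.96, 2.22 and 2.58 FPKM in shControl, against 2.85, 2.00 and 3.80 FPKM in shEphexin1.

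S100A16 and S100A2 lie on the same strand of chromosome 1, 39.0 kb apart, and differed in opposite directions. The ratio of S100A16 to S100A2 FPKM, which does not depend on the scaling of a library and was chosen after the values had been seen, was 0.606, 0.656 and 0.727 in shControl and 2.87, 3.08 and 2.44 in shEphexin1 (p = 0.1 in an exact two-sided permutation test). Both genes had groups without overlap, in opposite directions, so the ratio could not overlap. Its p was fixed in advance and adds nothing to the results of the single genes. S100A16 made up 1.68% to 2.09% of the summed S100 FPKM of a shControl library and 3.47% to 4.15% of that of a shEphexin1 library, and the share of S100A2 went from 2.93% ± 0.406 to 1.41% ± 0.286 (SD, n = 3 each). The promoter windows of S100A16, S100A2 and S100A4 are shown because these genes had the largest differences among S100 genes above 1 FPKM and lie close together. Each window holds 250 bases before and 50 bases after a transcription start from RefSeq (GRCh38.p14, minus strand), written 5′ to 3′ on the strand of the gene, with chr1:153613088-153613387 for S100A16 (the farther upstream of its starts), chr1:153565795-153566094 for S100A2 (likewise the farther upstream) and chr1:153545757-153546056 for S100A4. Capitals mark matches, on either strand, to the letters searched. These were TGANTCA for AP-1 sites, TATAAA for a TATA box, GGGCGG for a Sp/KLF box and GGAATG for TEAD factors, and none of their matches overlap in these windows.
S100A16: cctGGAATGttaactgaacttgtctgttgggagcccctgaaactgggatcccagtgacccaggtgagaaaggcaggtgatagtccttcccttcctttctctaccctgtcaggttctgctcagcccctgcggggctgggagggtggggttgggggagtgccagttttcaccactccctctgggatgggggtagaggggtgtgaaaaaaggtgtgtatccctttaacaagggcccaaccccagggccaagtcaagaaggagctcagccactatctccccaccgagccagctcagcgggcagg
S100A2: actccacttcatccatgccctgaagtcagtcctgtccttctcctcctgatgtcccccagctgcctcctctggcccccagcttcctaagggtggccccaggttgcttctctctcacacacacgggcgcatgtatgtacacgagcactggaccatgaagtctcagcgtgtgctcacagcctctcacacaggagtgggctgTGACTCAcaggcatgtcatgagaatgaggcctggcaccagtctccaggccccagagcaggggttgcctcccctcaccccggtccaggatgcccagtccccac
S100A4: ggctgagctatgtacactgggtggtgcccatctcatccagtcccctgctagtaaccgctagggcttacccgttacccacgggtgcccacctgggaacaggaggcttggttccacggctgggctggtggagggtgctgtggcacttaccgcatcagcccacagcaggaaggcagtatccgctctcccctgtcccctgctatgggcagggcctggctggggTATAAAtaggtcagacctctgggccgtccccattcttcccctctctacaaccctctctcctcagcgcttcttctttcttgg
S100A16 has another start in the table, whose window (chr1:153609306-153609605) is not printed and held 1 Sp/KLF match and 1 TEAD match. S100A2 likewise has another start, whose window (chr1:153563838-153564137) is not printed and held none of the letters searched. The S100A16 window shown held 1 TEAD match near its distal end, the S100A2 window shown 1 AP-1 match, and the S100A4 window 1 TATA box match. Of 35116 windows of this length, 14.0% held the TEAD letters, 7.71% the AP-1 letters, 11.5% the TATA box letters and 45.0% the Sp/KLF letters. All 19 members tested had a start in the table, and of their 28 windows 3 held the TEAD letters, 4 the AP-1 letters, 6 the TATA box letters and 12 the Sp/KLF letters.

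S100A10 is the S100 partner of annexin A2 and, unlike its relatives, does not bind calcium. It was at 129.9, 127 and 153 FPKM in shControl, against 222, 163 and 187 FPKM in shEphexin1. All shEphexin1 libraries were above all shControl libraries, with shEphexin1 replicate 1 the highest. The log2 fold change was 0.47 (SE 0.142, adjusted p = 0.0966, and 0.0120 with the replicate block), which did not reach a call. ANXA2 was at 585, 585 and 602 FPKM in shEphexin1, all above its shControl values, with a log2 fold change of 0.14 (SE 0.0872, 95% interval -0.059 to 0.35, adjusted p = 0.377). The adjusted p of ANXA2 with the replicate block was 0.0290, over the threshold. With quantile normalization the values were larger and passed the adjusted p, at 0.52 for ANXA2 (adjusted p = 0.0132) and 0.64 for S100A10 (adjusted p = 0.0239). This normalization also raised the values of ANXA1 and S100A11, given below, so the rise was not particular to this pair. With the GC content and length correction and the block the log2 fold change of ANXA2 was 0.21 (adjusted p = 0.00650). The ratio of S100A10 to ANXA2 FPKM was 0.243, 0.245 and 0.279 in shControl and 0.380, 0.278 and 0.310 in shEphexin1, and these ranges overlapped. The processed pseudogenes ANXA2P1, ANXA2P2 and ANXA2P3, near-identical copies of ANXA2, were at no more than 0.123 FPKM in any library.

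The annexin A2 and S100A10 complex is known as a cell surface site for plasminogen activation, and the genes of that system were in the list of partners and receptors. PLAU, the urokinase plasminogen activator, was at 219, 182 and 234 FPKM in shControl, against 387, 307 and 395 FPKM in shEphexin1. It rose 1.71-fold at the adjusted p alone (log2 fold change 0.78, standard error 0.143, adjusted p = 0.0243) and was under the 2-fold threshold. PLAUR, its receptor, was at 222, 178 and 253 FPKM in shControl, against 379, 304 and 429 FPKM in shEphexin1, with a log2 fold change of 0.77 (SE 0.174, adjusted p = 0.0429, and 2e-04 with the replicate block). Both were higher in every shEphexin1 library than in any shControl library. PLAT, the tissue type activator, had a log2 fold change of 0.11 (SE 0.175).

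S100A11 binds annexin A1 and is, with S100A10, among the most abundant S100 mRNAs of these cells. S100A11 was at 391, 361 and 446 FPKM in shControl, against 451, 425 and 509 FPKM in shEphexin1. The groups overlapped, but within each replicate number shEphexin1 was higher by a similar log2 difference (0.21, 0.23 and 0.19). The log2 fold change was 0.21 (SE 0.120, adjusted p = 0.352, and 0.00718 with the replicate block), and 0.57 with quantile normalization (adjusted p = 0.00935). It was 0.14 without shEphexin1 replicate 3 or without shControl replicate 2. ANXA1, an inhibitor of phospholipase and a ligand of formyl peptide receptors, was at 467, 517 and 457 FPKM in shEphexin1. Its log2 fold change of -0.085 (SE 0.0938, 95% interval -0.30 to 0.13, adjusted p = 0.652) turned to 0.30 after quantile normalization, so it had no settled direction. S100A13, which takes part in the export of signal proteins without a signal peptide, was at 134, 113 and 147 FPKM in shControl, against 140.1, 128 and 158 FPKM in shEphexin1, an overlapping range with a log2 fold change of 0.12 (SE 0.133, adjusted p = 0.661). S100A1 lies across S100A13 on the opposite strand, and how the counting used strand is not given in the sources used here.

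The annexins differed little. For 7 of the 8 tested, the 95% interval of the log2 fold change lay within a 2-fold difference either way, and the exception was ANXA9 (-1.07 to -0.10). The same held for 11421 of all 16020 genes tested, so it was not particular to the annexins. ANXA4, which binds membranes of epithelial cells, was at 23.0, 19.6 and 25.2 FPKM in shControl, against 28.7, 29.5 and 26.6 FPKM in shEphexin1. These groups did not overlap, and the log2 fold change was 0.33 (SE 0.125, adjusted p = 0.173). ANXA9 was at 1.23, 1.28 and 1.73 FPKM in shControl, against 0.832, 0.853 and 1.02 FPKM in shEphexin1, again without overlap. Its log2 fold change was -0.59 (SE 0.208, adjusted p = 0.146), and its shEphexin1 mean was 63.8% of the control. ANXA11, which tethers RNA granules to lysosomes, was at 56.4, 47.9 and 57.8 FPKM in shControl, against 50.8, 40.5 and 51.7 FPKM in shEphexin1. ANXA6, the annexin with a doubled core, was at 38.7, 30.5 and 39.8 FPKM in shControl, against 33.4, 26.9 and 35.6 FPKM in shEphexin1. The groups of both overlapped, each was lower in shEphexin1 within all 3 replicate numbers, and their log2 fold changes were -0.18 and -0.19, although that of ANXA11 was 0.041 once the median of its chromosome was subtracted. Their limma adjusted p was 0.475 for ANXA11 and 0.537 for ANXA6, and 0.0205 and 0.0216 with the replicate block. ANXA5, a phosphatidylserine binder used to stain dying cells, was at 127, 120.2 and 137 FPKM in shControl, against 118, 123 and 121 FPKM in shEphexin1. Its groups overlapped (log2 fold change -0.081, SE 0.0939, adjusted p = 0.668), and ANXA7 differed by -0.17 on the log2 scale (SE 0.122). These values turned to 0.045 for ANXA5 with quantile normalization and to 0.052 for ANXA7 with chromosome medians subtracted.

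The remaining S100 genes tested were at no more than 1.20 FPKM in any library. S100A1, a regulator of calcium handling in muscle, was at 0.551, 0.378 and 0.355 FPKM in shControl, against 1.20, 0.281 and 0.992 FPKM in shEphexin1. Replicate 2 went the other way from replicates 1 and 3, so the log2 fold change of 0.65 (SE 0.469) was within the spread. S100A5 was at 0.203, 0.511 and 0.412 FPKM in shControl, against 0.103, 0.239 and 0.140 FPKM in shEphexin1, a log2 fold change of -0.84 (SE 0.370, adjusted p = 0.227). S100A14 and S100P each had a log2 fold change of 0.50 with SEs of 0.428 and 0.611. S100A14 reached 0.1 FPKM in all 3 shEphexin1 libraries and in 1 shControl library, so it entered the test mainly through the group where it was higher. S100P reached it in 2 shEphexin1 libraries and 1 shControl library, and was listed at 0 in the others.

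Position was examined because 15 of the 19 S100 genes lie in a span of 1.65 Mb on chromosome 1 (GRCh37, 151955391 to 153604515), whereas the annexins are spread over 8 chromosomes. In order along the chromosome, the 10 of these S100 genes that were tested did not move as a block. Within all 3 replicate numbers, 4 were higher in shEphexin1 (S100A10, S100A11, S100A13 and S100A16), 3 were lower (S100A2, S100A4 and S100A5) and 3 were mixed, while 62.2% of all genes tested had 1 direction in all 3. S100A16 (153579362 to 153585621), with the highest log2 fold change, lay between S100A2 (153533584 to 153540366), which was lower, and S100A14. S100A4 (153516089 to 153522612), S100A10 (151955391 to 151966335) and S100A11 (152004982 to 152020383) are on the same minus strand, while ANXA2 lies on chromosome 15 (60639333 to 60695082, minus strand) and ANXA1 on chromosome 9 (75766781 to 75785309, plus strand). Within 1 Mb of either end of this span, 57 other genes were tested, with a median log2 fold change of -0.015. Of these 57, 1 was called and 2 passed the adjusted p alone, near the shares of all genes tested (1.89% and 3.41%). The gene called was IL6R, the interleukin-6 receptor, with a log2 fold change of 1.09 (SE 0.174, adjusted p = 0.0163). The other was RPS27, a ribosomal protein gene, which fell by 0.57 on the log2 scale (adjusted p = 0.0230). CHTOP, the gene next to S100A1 on the other side of the cluster, had a log2 fold change of -0.088 (SE 0.122).

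**Figure D3:**
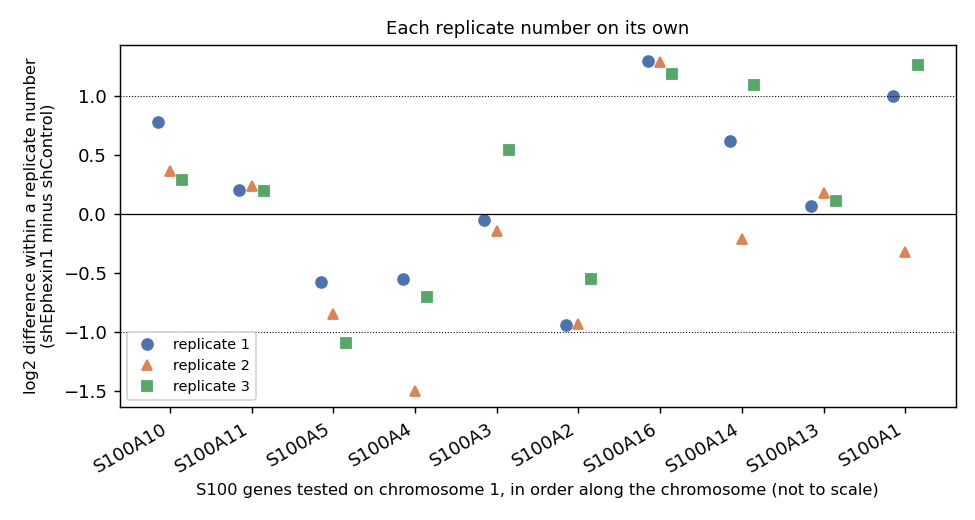
Log2 difference between shEphexin1 and shControl within each replicate number (circles 1, triangles 2, squares 3), on the log2(FPKM + 0.1) scale, for the 10 S100 genes tested on chromosome 1 in their order along it. S100A16 lies between 1.19 and 1.29 in all 3 replicates, whereas its neighbour S100A2 lies between -0.94 and -0.56.

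Partner genes and related calcium-binding genes were read from 3 lists. Among all genes tested, 1.89% were called and 3.41% passed the adjusted p alone. Of the 18 partners and receptors, 13 were tested, 0 were called and 1 (PLAU) passed the adjusted p alone. FPR1 and FPR2, the annexin A1 receptors, and TLR4, a receptor for calprotectin, were listed at 0 in all 6 libraries, and AGER, the receptor of several S100 proteins, was at 2.67 ± 0.347 FPKM in shControl, against 2.26 ± 0.335 FPKM in shEphexin1 (SD, n = 3 each). AHNAK, a large scaffold bound by annexin A2 and S100A10, was at 180, 183 and 165 FPKM in shControl, against 208, 205 and 210.1 FPKM in shEphexin1. These groups did not overlap, with a log2 fold change of 0.24 (SE 0.0903, adjusted p = 0.167, and 0.0118 with the replicate block). MYH9, the myosin heavy chain that S100A4 binds, had a log2 fold change of 0.40 (SE 0.224, adjusted p = 0.345, and 0.00124 with the replicate block). With the replicate block 7 of the 13 passed the adjusted p, all of them higher in shEphexin1, where 10.1% of all genes passed as higher. In either direction 25.7% of all genes and 40.0% of those with a mean of 10 FPKM or more passed. With a GC content and length correction added to the block 5 passed, and AHNAK was not among them (adjusted p = 0.111).

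Of the 31 other EF-hand genes, 29 were tested and 2 passed the adjusted p, in opposite directions, where 3.41% of all genes passed. NCALD, which encodes the neuronal calcium sensor neurocalcin delta, was at 1.06, 1.03 and 0.875 FPKM in shControl, was listed at 0 in every shEphexin1 library, and was called lower (adjusted p = 0.00106). It passed the filter only through the group where it was higher, and the call was lost with a pseudocount of 1 FPKM or a filter of 1 FPKM. CALU, which encodes calumenin, a calcium-binding protein of the secretory pathway, rose from 48.7 ± 2.50 to 92.6 ± 13.3 FPKM (SD, n = 3 each), a log2 fold change of 0.92 (SE 0.127, adjusted p = 0.0103), just under 2-fold. With the replicate block 10 of the 29 passed the adjusted p, near the share of all genes (25.7%, and 40.0% from 10 FPKM). Of the 20 genes of membrane repair and other membrane binding, 17 were tested and 0 were called. ESYT2, a tether between the endoplasmic reticulum and the plasma membrane, rose at the adjusted p alone from 23.4 ± 0.364 to 39.4 ± 1.91 FPKM (log2 fold change 0.75, adjusted p = 0.00765). CAV1, the main protein of caveolae, rose in the same way from 215 ± 7.46 to 344 ± 39.0 FPKM (SD, n = 3 each, log2 fold change 0.67, adjusted p = 0.0178). DYSF, which encodes dysferlin, a membrane repair protein that works with annexins, was under the filter, and its relative MYOF was at 108 ± 3.39 FPKM in shEphexin1 with a log2 fold change of 0.11 (SE 0.0967). With the replicate block 6 of the 17 passed the adjusted p, 4 of them higher, again near these shares.

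As summed FPKM, the annexins amounted to 1328 ± 29.2 in shControl and 1338 ± 22.5 in shEphexin1 (SD, n = 3 each), a difference smaller than the spread (two-sided exact permutation test, p = 0.7). The S100 genes summed to 703, 639 and 799 FPKM in shControl and to 870, 756 and 920 FPKM in shEphexin1. These ranges overlapped (two-sided exact permutation test, p = 0.2), and most of the difference lay in S100A11 and S100A10. As a share of the summed FPKM of all genes, the S100 genes made up 0.116% ± 0.00568 in shControl and 0.153% ± 0.00569 in shEphexin1 (SD, n = 3 each), without overlap (p = 0.1 in an exact two-sided permutation test). The share of the annexins went from 0.217% ± 0.0121 to 0.242% ± 0.0196 (SD, n = 3 each), with overlap, although their sum hardly differed. Both shares thus depend also on the summed FPKM of all genes, and not on the members alone.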

How the data were processed

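Stranded total RNA libraries of H1299 cells (3 shControl, 3 shEphexin1) were sequenced. Per the study's methods, mapping used TopHat 2.0.13 on the hg19 (GRCh37) genome, and the authors deposited FPKM from Cuffdiff 2.2.1, with geometric library normalization and pooled dispersion. The gene annotation and any filter are not given in the sources used here. All 6 value columns were assigned by library name, and 0 were left out. Counting error could not be computed from FPKM.

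The 16020 of 26255 genes that reached 0.1 FPKM in 3 or more libraries were compared as log2(FPKM + 0.1) with limma 3.58.1 and an eBayes trend (R 4.3.3). P-values were adjusted by the Benjamini-Hochberg method over all of these genes, and every adjusted p given is from limma. Fold changes are on this scale, which understates those of low genes. The pipeline was tested on simulated data. Positions are from GENCODE v44 on GRCh37, to which 23713 of 26253 distinct names were matched (1291 by a RefSeq synonym). Promoter windows are from RefSeq on GRCh38.p14. Python 3.11.15, pandas 2.3.3 and matplotlib 3.10.9 were used.

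The members, gene lists, tests and alternatives were chosen with earlier results of these data known. Named in full are members called, those at an adjusted p of at most 0.025, those without overlap and at least 1.5-fold apart, the 4 most abundant of each family, and known binding pairs. Other members are named for completeness. Of the 3 other lists, genes called or with the smallest p are named, and further ones for their known role, chosen after their values were seen. Across genes with a mean of at least 1 FPKM, the deviations from the group means of same-numbered libraries correlated (r = 0.234, 0.639 and 0.513 for replicates 1, 2 and 3), all above 0.1. Between the groups, libraries of unlike number correlated negatively, except shControl replicate 3 with shEphexin1 replicate 1 (r = 0.149). Deviations from the mean of 3 libraries sum to 0, so these negative values follow in sum from the positive ones and add no support. For the same reason the 3 same-number values are not independent of each other. They were larger for replicates 2 and 3 and weak for replicate 1. The replicate numbers come from the sample titles, which do not say what they stand for. The blocked values are given where they change a result. Replicate 2 of both groups was known from earlier work to differ in GC content bias, and values without it were computed.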

Additional observations from a re-analysis of the deposited data

How the results depend on the processing

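Over 23 alternatives (22 for S100A1, S100A5, S100A14 and S100P, which a filter of 1 FPKM leaves out), 14 of the 19 members tested kept the direction of their log2 fold change. The others were values near 0: ANXA1 (0.30) and ANXA5 (0.045) turned positive with quantile normalization, ANXA1 (0.013), ANXA11 (0.041) and ANXA7 (0.052) with chromosome medians subtracted, and S100A3 turned to -0.10 without shEphexin1 replicate 3 (-0.10 to 0.34 over the fits that left out 1 library). S100A16 stayed above 0 and over 2-fold in all of them, and its call was lost, with 0 members then called and 0 called higher, with eBayes without trend (adjusted p 0.0323) and without any library other than shEphexin1 replicate 2. Leaving out 1 library at a time gave 0 to 1 members called, 0 to 1 called higher and 0 to 0 called lower, 0 to 1 at the adjusted p alone, a median log2 fold change of -0.050 to 0.15 and 1 to 2 genes called in the 3 lists. The count of members at the adjusted p alone was 0 with eBayes without trend, 4 with quantile normalization, 7 with the replicate block, 4 with a term for replicate 2, 2 with replicates 1 and 3 alone, 5 with a GC content and length correction and 9 with that correction and the replicate block. The median over members was -0.081 with a filter of 1 FPKM, which drops 4 low S100 genes, and 0.25 with quantile normalization. Genes called in the 3 lists numbered 0 with a pseudocount of 1 FPKM or a filter of 1 FPKM, 4 with quantile normalization, 2 with chromosome medians subtracted and 5 with no fold threshold. The numbers of all genes called were 303 as reported, 139 with a pseudocount of 1 FPKM and 556 with the replicate block, and from 61 without shControl replicate 1 to 316 without shEphexin1 replicate 2. Beyond the members named in the report, the replicate block changed no other call at the adjusted p among members. The causes were not tested.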
